A study of Mus musculus with 10 samples.

Results

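The genes described here are the 33 that encode the constitutive subunits of the mouse proteasome: the 14 genes of the core particle, the 17 genes of the regulatory particle and the genes of 2 alternative activators, Psme3 and Psme4. They were taken by symbol from a list of subunits that uses no value as a threshold, although the set was chosen with earlier results of these data known. All 33 were found among the 36528 gene identifiers, and all 33 passed the filter on low counts, which left 13588 genes for the test. The 10 libraries are polyadenylated RNA from tumour-associated macrophages purified from C57Bl/6 mice that carried MC-38 tumours, a transplanted colon carcinoma line. The 2 groups of 5 differ in the antibody named in the labels: anti-MerTK, against a receptor tyrosine kinase by which macrophages take up dying cells, or anti-gp120, against an envelope protein of HIV that a mouse does not make. The series' design text gives the time as 24 h of treatment, and both groups share strain, tumour and cell type. The labels do not say how the cells were purified or whether each library is a separate mouse, so a p-value here reflects no more than library-to-library spread, possibly technical.

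The proteasome is the main protease of the cytosol and nucleus. Its barrel-shaped core particle stacks outer rings of alpha subunits, which gate the entry, on inner rings of beta subunits, of which Psmb5, Psmb6 and Psmb7 carry the active sites. The regulatory particle caps the barrel, binds ubiquitin chains, removes them and unfolds the substrate with a ring of ATPases. In macrophages and other antigen-presenting cells the inducible subunits Psmb8, Psmb9 and Psmb10 can take the places of Psmb5, Psmb6 and Psmb7, which shifts the peptides available to MHC class I, and Psme1 and Psme2 form a further activator that interferon induces.

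Most proteasome transcripts had small positive differences after anti-MerTK that did not pass the test one by one, with no upper end of a 95% interval above 1.39-fold. Of the 33 genes, 32 had a positive log2 fold change (anti-MerTK over anti-gp120), against 49.0% of all tested genes, and their median was 0.205, or 1.15-fold, against -0.006 over all tested genes. Only Psmc4 and Psmd3, both of the regulatory particle, passed edgeR's quasi-likelihood test at a Benjamini-Hochberg adjusted p under 0.05, and no member was lower by that test. The background for that count is 3.22% of the 13588 tested genes called in either direction, 1.85% called higher and 1.38% called lower. At an unadjusted p under 0.05, 19 members were higher and 1, Psme4, was lower, against 10.1% and 10.8% of all tested genes. The groups did not overlap for 9 members, in each case with all anti-MerTK libraries above all anti-gp120 libraries, against 3.26% of all tested genes with that order and 2.71% with the opposite one.

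**Figure D1:**
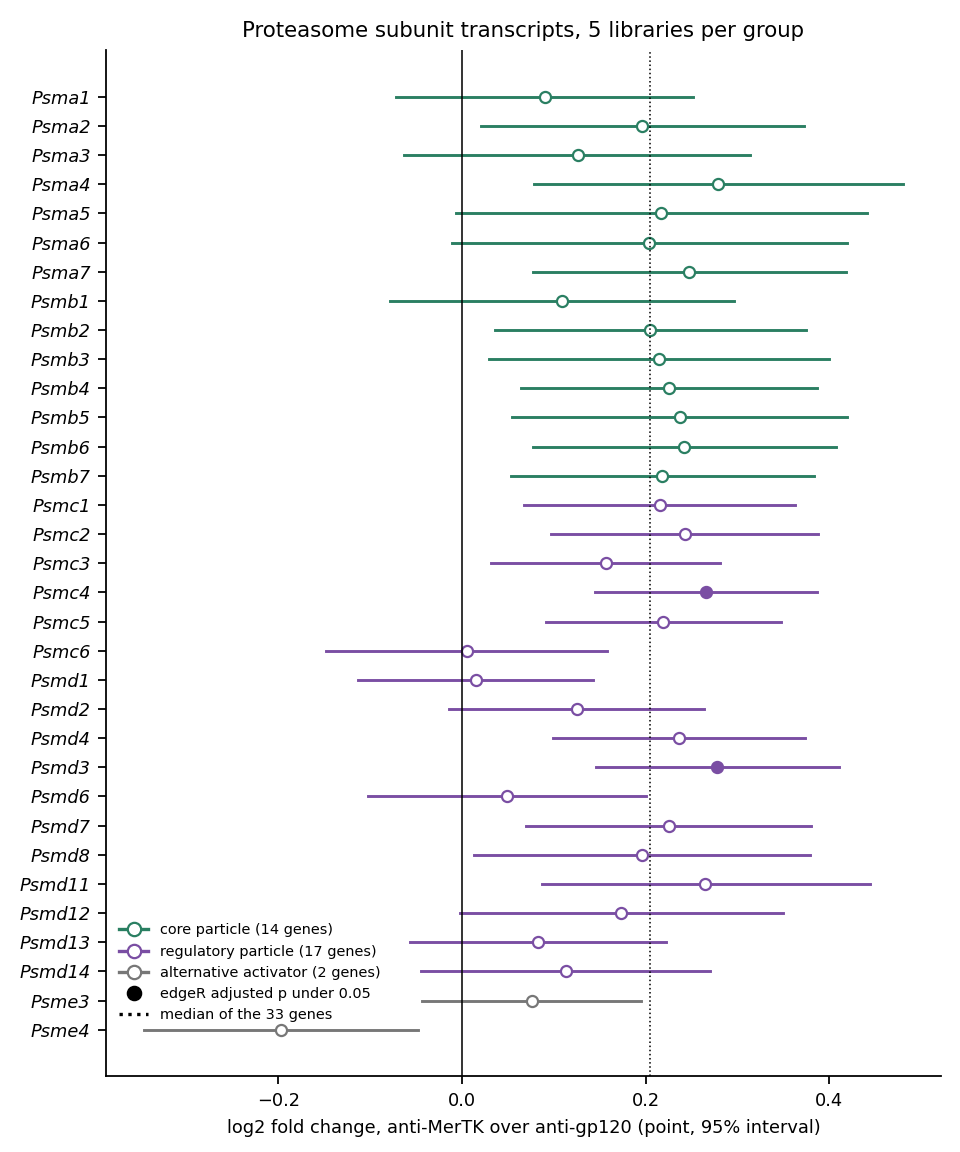
Log2 fold change (anti-MerTK over anti-gp120) of each of the 33 genes on the horizontal axis, with its 95% interval, listed by role down the page; filled points passed edgeR's test and the dotted line is the median of the 33 genes. The points of 32 genes lie above 0, Psmc4 and Psmd3 are filled, and Psme4 lies at -0.20.

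The counted reads were those that aligned uniquely, per the file headers, and some subunit genes have near-identical processed pseudogenes in the genome. The pair that shows this best is Psmb5, the gene of the chymotrypsin-like active site, and its copy Gm3375. Psmb5 lies on the minus strand of chromosome 14 (GRCm38, 54614119 to 54618022 in GENCODE M21), and Gm3375 on the plus strand of chromosome 7 (3181093 to 3181888). Over 796 aligned bases they are 98.869% identical, with 8 mismatches and a longest identical run of 194 bases. The stretch shown is coding bases 337 to 456 of Psmb5, counted from 1 at the start codon, with the differing bases in capitals.
Psmb5: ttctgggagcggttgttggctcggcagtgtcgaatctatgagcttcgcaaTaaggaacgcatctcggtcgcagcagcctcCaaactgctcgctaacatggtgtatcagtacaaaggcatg
Gm3375: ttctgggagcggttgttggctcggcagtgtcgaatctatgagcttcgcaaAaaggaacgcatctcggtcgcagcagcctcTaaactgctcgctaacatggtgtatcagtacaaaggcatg
The 2 sequences differ here at T387A and C417T, with the base of Psmb5 first. A read that falls between such positions matches both places. At this identity of at least 97% over at least 100 bases, pseudogene copies covered 88.4% of the Psmb5 transcript, 80.7% of Psmb3, 76.5% of Psma5, 45.8% of Psmc1, 44.6% of Psmd11 and 23.4% of Psma3. Some members without a pseudogene copy matched another annotated gene, over 35.1% of Psmb7, 17.2% of Psmd13, 9.87% of Psma4, 9.80% of Psmd1 and 8.14% of Psmc3.

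Levels were then compared per gene length. The 4 core genes with a pseudogene copy had means over the 10 libraries between 10.6 and 30.6 RPKM (reads relative to gene length and library total, with the authors' size factor), whereas the 10 core genes without one lay between 81.8 and 294 RPKM. The lowest of the 4, Psma3, had the smallest covered share, 23.4% of its transcript. Its gene model of 2386 bases is the longest of the core, where the median is 1061 bases, and a longer model lowers RPKM. In the regulatory particle, the 2 genes with a copy, Psmc1 and Psmd11, had medians over genes of 31.6 RPKM, against 72.6 RPKM for the 15 genes without one, whose range of 40.9 to 145 RPKM takes in Psmc1 but not Psmd11. Psmb5 averaged 29.1 ± 1.95 RPKM after anti-MerTK and 24.7 ± 2.77 RPKM after anti-gp120 (SD, n = 5 each), while Psmb6, a beta subunit in the same ring without such a copy, averaged 168 ± 11.0 RPKM after anti-MerTK and 142 ± 13.6 RPKM after anti-gp120. The assembled core holds its subunits in equal number. The part of read assignment in these low levels was not tested. A fold change between groups uses the same gene in every library, and the genes with copies had log2 fold changes from 0.126 (Psma3) to 0.265 (Psmd11), within the range of the others.

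**Figure D2:**
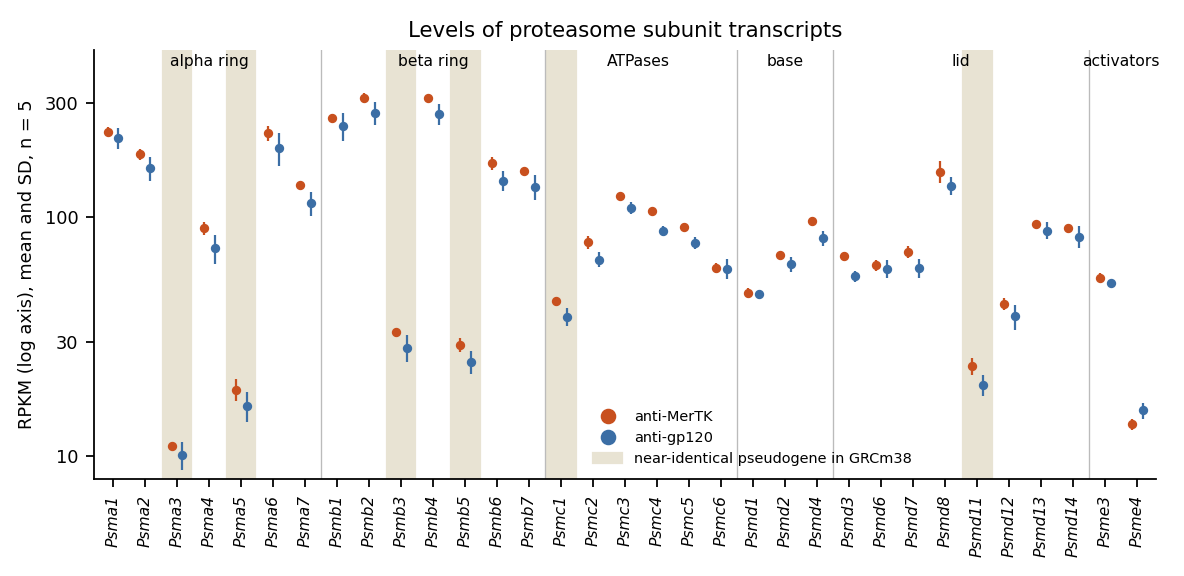
Level of each subunit gene in RPKM on a log axis, as mean and SD of 5 libraries, with anti-MerTK left of anti-gp120 and genes grouped by role; shaded genes have a near-identical pseudogene. The shaded core genes lie between 10.6 and 30.6 RPKM, below every unshaded core gene, and Psme4 is the lowest of the genes without a copy.

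In the alpha ring, which forms the gate of the barrel, all 7 genes had a positive log2 fold change, between 0.09 (Psma1) and 0.279 (Psma4), and none passed the test. Psma4 had 104, 123, 106, 111 and 109 CPM (counts scaled to TMM library size) in the anti-MerTK libraries 1 to 5, against 104, 77.0, 104, 80.4 and 91.5 CPM in the anti-gp120 libraries 1 to 5. The groups did not overlap before rounding, but only narrowly: anti-gp120 libraries 1 and 3 lay just under the lowest anti-MerTK library, and libraries 2 and 4 well below. Its log2 fold change of 0.279 (SE 0.093) is the largest of the 33 and had an edgeR adjusted p of 0.113. Psma7 had 210.0, 222, 211, 220.0 and 212 CPM after anti-MerTK, against 197, 156, 198, 163 and 193 CPM after anti-gp120. The anti-MerTK values lay close together and above all of the others, with a log2 fold change of 0.247 (SE 0.079, edgeR adjusted p = 0.102). At the low end, Psma1 averaged 285 ± 11.7 CPM after anti-MerTK and 268 ± 25.6 CPM after anti-gp120, and its 95% interval of the fold, 0.951 to 1.19, takes in no change.

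In the beta ring all 7 genes were again positive, between 0.109 (Psmb1) and 0.242 (Psmb6), and none passed. Among the catalytic subunits, Psmb5 had 26.1, 27.2, 25.4, 22.8 and 24.7 CPM after anti-MerTK, against 24.4, 18.3, 22.7, 20.9 and 20.6 CPM after anti-gp120, which overlap. Psmb6, of the caspase-like site, had 190.0, 180.0, 180.0, 165 and 194 CPM after anti-MerTK, against 165, 135, 158, 143 and 167 CPM after anti-gp120. The lowest anti-MerTK library met the highest anti-gp120 libraries, and the edgeR adjusted p of 0.101 for its log2 fold change of 0.242 (SE 0.076) was the smallest in the core particle. Psmb7, of the trypsin-like site, had 159, 165, 163, 157 and 166 CPM after anti-MerTK, against 154, 124, 157, 127 and 135 CPM after anti-gp120 (log2 fold change 0.218, SE 0.076, edgeR adjusted p = 0.129). Log2 fold changes of the 3 catalytic genes thus lay closer together than a single SE. Of the structural beta subunits, Psmb4 was the one whose groups did not overlap, with 286, 308, 303, 295 and 301 CPM after anti-MerTK, against 272, 225, 279, 233 and 269 CPM after anti-gp120 (log2 fold change 0.225, SE 0.074, edgeR adjusted p = 0.111). Over both rings, 9 of 14 genes had an unadjusted p under 0.05, against 10.1% of all tested genes, and 0 passed after adjustment, whereas DESeq2 called 3 (Psma7, Psmb4 and Psmb6) and limma-voom with quality weights 4, where these tools called 4.42% and 3.87% of all genes higher.

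The summed core particle level carried the same feature as the single genes: a narrower spread in the anti-MerTK group than in the anti-gp120 group. The 14 genes summed to 2251, 2394, 2307, 2239 and 2349 CPM after anti-MerTK, against 2183, 1766, 2268, 1833 and 2057 CPM after anti-gp120. Anti-gp120 library 3 reached the anti-MerTK range, library 1 lay just under it, and libraries 2 and 4 stood lowest. These 2 libraries were the 2 lowest of all 10 for 13 of the 14 core genes (92.9%), for 7 of the 17 regulatory genes (41.2%) and for 9.21% of all tested genes. The coefficient of variation was smaller after anti-MerTK than after anti-gp120 for all 14 core genes, with medians of 4.46% and 11.2%, against 58.5% of all tested genes, whose medians were 11.4% and 13.0%. It was also smaller for 15 of the 17 regulatory genes (medians 4.54% and 7.76%) and for all 5 inducible subunits and activators (9.45% and 18.4%). This feature was thus not particular to the core. Without anti-gp120 library 2 the median log2 fold change of the core genes was 0.163, and without library 4 it was 0.183, against 0.216 with both; all 14 stayed positive each time. In bulk RNA, fewer cells of a type and less RNA per cell cannot be told apart.

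**Figure D3:**
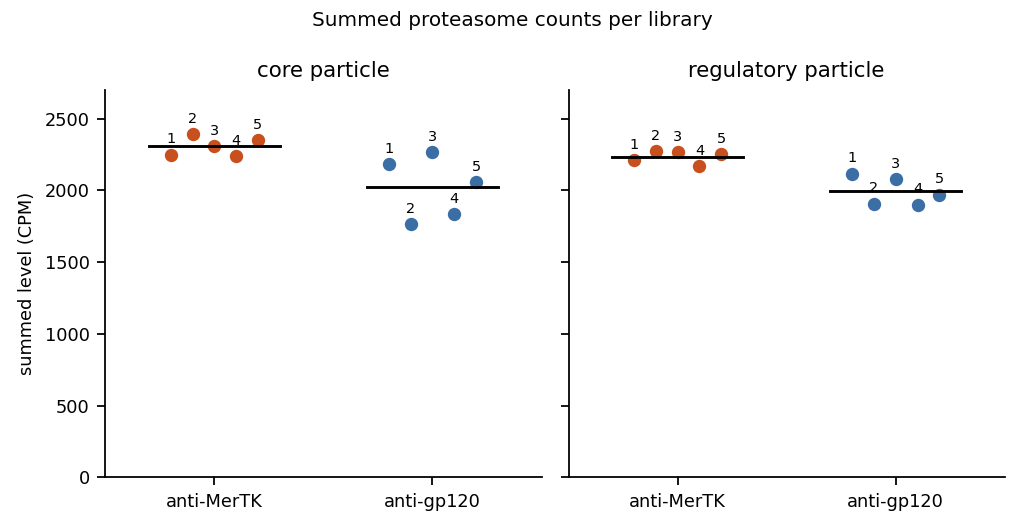
Summed CPM of the 14 core particle genes (left) and the 17 regulatory particle genes (right) in each library, with the library number above its point and the group mean as a bar. Anti-MerTK libraries lie between 2239 and 2394 CPM for the core, above the anti-gp120 mean but overlapping its highest library at 2268 CPM, and the groups do not overlap for the regulatory particle.

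The regulatory particle genes summed to 2211, 2278, 2270, 2169 and 2257 CPM after anti-MerTK, against 2118, 1909, 2082, 1902 and 1972 CPM after anti-gp120. Here the groups did not overlap, with means of 2237 ± 46.0 CPM after anti-MerTK and 1997 ± 99.3 CPM after anti-gp120 (SD, n = 5 each) and a ratio of 1.12. The core averaged 2308 ± 65.2 CPM after anti-MerTK and 2021 ± 217 CPM after anti-gp120, a ratio of 1.14. All 17 regulatory genes had a positive log2 fold change, with a median of 0.196, 10 were higher at an unadjusted p under 0.05 (10.1% of all tested genes) and 2 passed after adjustment (1.85%).

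Within the ATPase ring, which pulls substrates into the core, Psmc4 rose after anti-MerTK. It had 152, 156, 156, 149 and 143 CPM after anti-MerTK, against 129, 120, 131, 121 and 127 CPM after anti-gp120. The groups stood clear of each other, and the log2 fold change was 0.266 (SE 0.056, 1.2-fold, 95% interval 1.11 to 1.31, edgeR adjusted p = 0.0277). Psmc4 is encoded on chromosome 7 (28041702 to 28050092 in RefSeq's GRCm38.p6). Psmc2, Psmc3 and Psmc5 also had groups that did not overlap, without passing the test. Psmc5 had 113, 122, 119, 113 and 110.0 CPM after anti-MerTK, against 104, 92.0, 105, 98.5 and 96.8 CPM after anti-gp120 (log2 fold change 0.219, SE 0.059, edgeR adjusted p = 0.0659). Psmc3 was the steadiest gene of the set after anti-MerTK, with 197, 198, 201, 198 and 197 CPM, against 179, 167, 187, 169 and 187 CPM after anti-gp120, and a log2 fold change of 0.157 (SE 0.057). The ATPase gene that stood apart was Psmc6, with 92.2, 94.7, 92.3, 93.7 and 103 CPM after anti-MerTK, against 96.3, 89.4, 109, 93.3 and 86.4 CPM after anti-gp120. Its groups were interleaved, with a log2 fold change of 0.005 (SE 0.070) and a 95% interval of the fold from 0.903 to 1.12. That interval lies below the 1.2-fold of Psmc4 but narrowly overlaps the interval of Psmc4, 1.11 to 1.31. The difference between the 2 genes was not itself tested.

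In the base, Psmd4, a ubiquitin receptor, had 125, 140.0, 132, 131 and 128 CPM after anti-MerTK, against 110.0, 101, 115, 111 and 122 CPM after anti-gp120, without overlap (log2 fold change 0.236, SE 0.063, edgeR adjusted p = 0.0659). Scaffold subunits gave smaller values. Psmd2 averaged 211 ± 6.15 CPM after anti-MerTK and 193 ± 14 CPM after anti-gp120 (log2 fold change 0.125), and Psmd1 averaged 156 ± 7.08 CPM after anti-MerTK and 154 ± 6.83 CPM after anti-gp120 (0.015).

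In the lid, which holds the deubiquitinase, Psmd3 rose after anti-MerTK. This structural subunit, encoded on chromosome 11 (98682554 to 98695978), had 150, 140, 155, 149 and 139 CPM after anti-MerTK, against 126, 124, 111, 117 and 126 CPM after anti-gp120. No value of one group reached the other, and the log2 fold change was 0.278 (SE 0.061, 1.21-fold, 95% interval 1.11 to 1.33, edgeR adjusted p = 0.0323). The deubiquitinase itself, Psmd14, averaged 137 ± 5.37 CPM after anti-MerTK and 127 ± 12.6 CPM after anti-gp120 and had a log2 fold change of 0.113 (edgeR adjusted p = 0.399). Its partner Psmd7 had 0.225 (edgeR adjusted p = 0.102). Psmd11 had 36.8, 45.6, 43.3, 39.6 and 41.6 CPM after anti-MerTK, against 40.2, 31.7, 34.4, 31.8 and 34.2 CPM after anti-gp120, a log2 fold change of 0.265 (SE 0.082, edgeR adjusted p = 0.0974) in which anti-gp120 library 1 overlapped the other group. The remaining lid genes Psmd6, Psmd8, Psmd12 and Psmd13 lay between 0.049 and 0.196, with overlapping groups.

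The calls of Psmc4 and Psmd3 were close to the threshold. Neither passed when any of anti-MerTK libraries 1, 2, 3 or 4 or anti-gp120 libraries 2 or 4 was left out. In those fits 55 to 142 genes were called higher over all genes, against 251 with all 10 libraries. The log2 fold changes there ran from 0.245 to 0.271 for Psmc4 and from 0.258 to 0.295 for Psmd3. Psmd3 alone was lost without anti-gp120 library 3, where 156 genes were called higher over all genes. In the other direction, 4 regulatory genes passed without anti-gp120 library 1 (1.81% of all genes higher), 4 passed with a filter of 5 CPM in 5 libraries (2.61% of all genes higher), and DESeq2 called 9 of the 17 (4.42%). None passed with no filter on low counts (0.972% of all genes higher) or in 8 libraries without anti-MerTK libraries 2 and 5 (1.1%), which earlier work on these data found to stand apart.

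The 2 alternative activators had log2 fold changes of opposite sign, and neither passed the test. Psme3, which forms a cap found mainly in the nucleus, averaged 154 ± 6.35 CPM after anti-MerTK and 146 ± 4.08 CPM after anti-gp120 (log2 fold change 0.076, edgeR adjusted p = 0.457). Psme4, the large activator PA200, had 85.0, 82.4, 87.0, 91.8 and 93.3 CPM after anti-MerTK, against 100, 107, 96.2, 110.0 and 89.9 CPM after anti-gp120. It was the only member with a negative log2 fold change, -0.197 (SE 0.069, edgeR adjusted p = 0.129). Every anti-MerTK library lay below the anti-gp120 mean, with an overlap at anti-gp120 library 5.

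Gene length moved with these fold changes. Psme4 is the longest of the 33 gene models, at 6478 bases, and the core genes are short, with a median of 1061 bases, against 3074 bases over all tested genes. When all tested genes were divided by length into 4 equal classes, the median log2 fold change was 0.06 in the shortest class, 0.037 and -0.02 in the middle classes and -0.112 in the longest. In the shortest class, with 3397 genes, 61.4% had a positive log2 fold change and 14.4% were higher at an unadjusted p under 0.05, while all 27 members in that class were positive, 18 of them at an unadjusted p under 0.05, with a median of 0.216. With an offset for gene length in each library, the median was 0.15 for the core genes and 0.129 for the regulatory genes, 14 of 14 and 14 of 17 stayed positive, and neither Psmc4 (edgeR adjusted p = 0.0833) nor Psmd3 (0.0803) passed, where 1.3% of all genes were higher. With offsets for length and GC content the medians were 0.155 and 0.135, with no member called, against 1.41% of all genes called higher in that fit. Psme4 no longer had an unadjusted p under 0.05 with the length offset or with both offsets. The cause of the length trend was not tested.

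**Figure D4:**
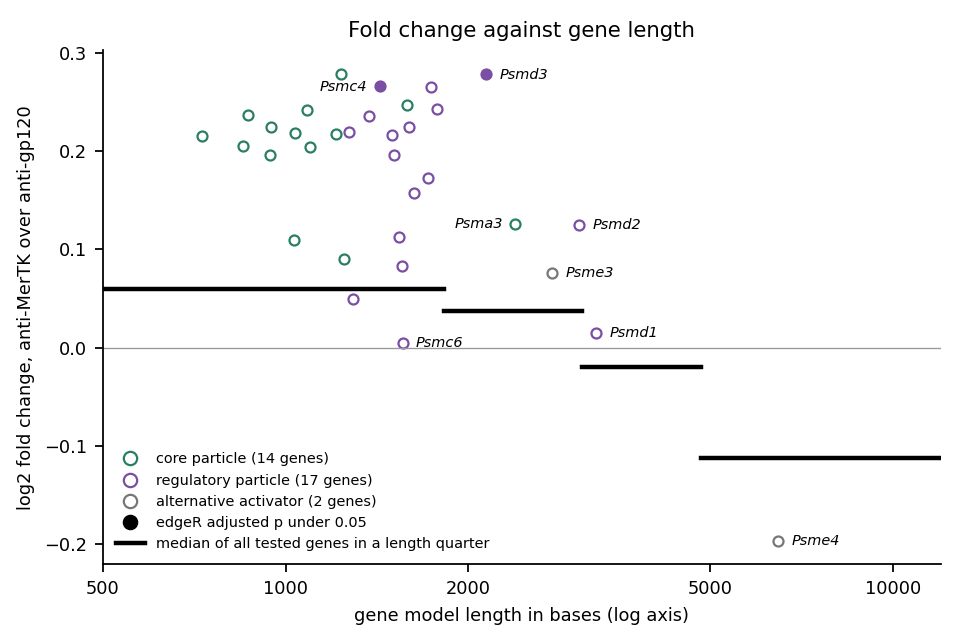
Log2 fold change (anti-MerTK over anti-gp120) of the 33 genes against gene model length on a log axis, with bars for the median of all tested genes in each of 4 length classes; the outermost bars are drawn only to the edge of the axis. Most members lie to the left and above the bar at 0.06, and Psme4 lies at the right, below the bar at -0.112.

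The inducible counterparts were compared with the subunits whose places they take. All 5 genes of that set had a positive log2 fold change, with a median of 0.307, 4 of them at an unadjusted p under 0.05 (10.1% of all tested genes), and 0 passed edgeR's adjusted test (1.85%; DESeq2 called 0, limma-voom 1). Psmb8 averaged 712 ± 75.6 CPM after anti-MerTK and 602 ± 97.2 CPM after anti-gp120 (log2 fold change 0.241), and Psmb9 averaged 356 ± 39.6 CPM after anti-MerTK and 288 ± 52.9 CPM after anti-gp120 (0.307). Psmb10 had 378, 416, 373, 380.0 and 356 CPM after anti-MerTK, against 329, 226, 318, 254 and 375 CPM after anti-gp120 (log2 fold change 0.342, SE 0.121, edgeR adjusted p = 0.135). Anti-gp120 libraries 2 and 4 were again the low ones, and library 5 overlapped the anti-MerTK values. Psme1 and Psme2 had log2 fold changes of 0.271 and 0.329. Psme2 shares 82.5% of its transcript with the protein-coding copy Psme2b, and Psme2b held more of the counts, with 247 ± 18.1 CPM after anti-MerTK and 207 ± 37.9 CPM after anti-gp120, while Psme2 had 75.2 ± 7.11 CPM after anti-MerTK and 59.9 ± 13.7 CPM after anti-gp120; Psme2b was chosen after its values were seen, and reads of these 2 genes are uncertain.

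The balance of inducible to constitutive catalytic subunit did not differ detectably in any of the 3 pairs. The RPKM ratio of Psmb10 to Psmb7 was 1.59, 1.69, 1.54, 1.62 and 1.44 after anti-MerTK, against 1.43, 1.22, 1.36, 1.34 and 1.86 after anti-gp120. All anti-MerTK libraries lay above 4 of the 5 anti-gp120 libraries and below library 5, and the mean log2 ratio differed by 0.139 (two-sided exact permutation test, p = 0.238, adjusted over the 3 ratios p = 0.714). The ratio of Psmb9 to Psmb6 was 1.25, 1.52, 1.22, 1.40 and 1.05 after anti-MerTK, against 1.25, 1.06, 1.27, 1.13 and 1.36 after anti-gp120 (difference in mean log2 ratio 0.075, exact permutation p = 0.516, adjusted p = 0.774). The ratio of Psmb8 to Psmb5 was 17.8, 19.8, 17.2, 21.1 and 16.5 after anti-MerTK, against 17.4, 17, 19.2, 16.3 and 22.2 after anti-gp120 (difference 0.01, exact permutation p = 0.929). Psmb5, the denominator of the last ratio, is the gene whose pseudogene copy is shown above. Matches to another annotated gene covered 35.1% of the Psmb7 transcript, 15.7% of Psmb9 and 7.62% of Psmb8. Without anti-gp120 library 5 the Psmb10 to Psmb7 difference was 0.235, with an adjusted exact permutation p of 0.0476, so this library decides that value. The remaining groups did not overlap, so the unadjusted exact permutation p of 0.0159 was the smallest that so few libraries can give.

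**Figure D5:**
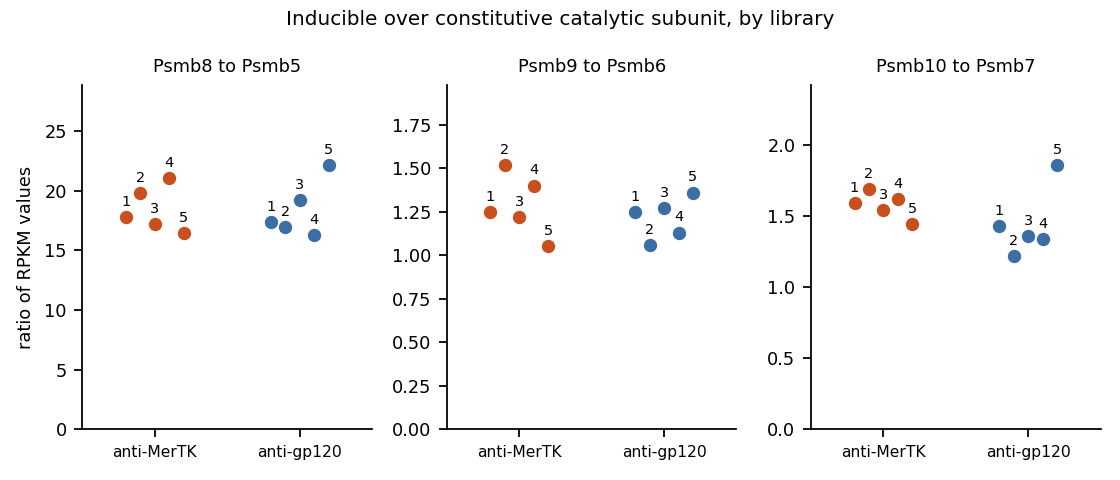
Ratio of RPKM values of each inducible catalytic subunit to the constitutive subunit it replaces, per library, from an axis that starts at 0, with the library number above its point. Points of both groups overlap in all 3 panels, and anti-gp120 library 5 is the highest of 10 for Psmb8 to Psmb5 and for Psmb10 to Psmb7.

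The promoters of these genes were searched for 4 short motifs, on both strands, in windows from 250 bases before to 50 bases after the start that RefSeq's GRCm38.p6 table gives. A window was found for 27 of the 33 members; Psmb1, Psmb2, Psmb7, Psmc3, Psmd3 and Psmd7 had none. The antioxidant response element core TGACNNNGC, bound by the Nrf family of factors that raise proteasome genes, occurred in 5 of the 27 (18.5%: Psmb5, Psmb6, Psmc6, Psmd12 and Psme4), against 13.99% of 27025 genes. Shown are the windows of Psmc4, which rose, of Psmb6, with the smallest p of the core, and of Psme4, the member that was lower at an unadjusted p under 0.05, with matches to TGACNNNGC in capitals. They lie at chr7:28050043-28050342 (minus strand), chr11:70525107-70525406 (plus strand) and chr11:30771525-30771824 (plus strand).
Psmc4: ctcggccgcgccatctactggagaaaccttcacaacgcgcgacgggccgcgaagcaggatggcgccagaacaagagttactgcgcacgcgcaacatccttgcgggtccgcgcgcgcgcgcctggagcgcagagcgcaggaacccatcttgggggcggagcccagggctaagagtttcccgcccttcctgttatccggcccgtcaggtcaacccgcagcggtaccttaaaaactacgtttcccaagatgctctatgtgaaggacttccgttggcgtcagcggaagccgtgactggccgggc
Psmb6: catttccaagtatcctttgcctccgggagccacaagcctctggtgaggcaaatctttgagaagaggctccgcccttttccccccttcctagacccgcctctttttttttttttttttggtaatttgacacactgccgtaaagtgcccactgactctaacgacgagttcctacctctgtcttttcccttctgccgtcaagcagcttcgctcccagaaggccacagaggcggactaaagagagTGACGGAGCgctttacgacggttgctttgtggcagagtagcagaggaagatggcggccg
Psme4: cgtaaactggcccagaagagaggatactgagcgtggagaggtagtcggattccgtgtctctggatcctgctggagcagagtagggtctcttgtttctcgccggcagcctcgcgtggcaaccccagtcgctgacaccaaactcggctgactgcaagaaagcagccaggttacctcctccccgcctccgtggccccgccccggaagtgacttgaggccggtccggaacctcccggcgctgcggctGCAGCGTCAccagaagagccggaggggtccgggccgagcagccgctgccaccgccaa
The 5 members with the motif had log2 fold changes of 0.237 (Psmb5), 0.242 (Psmb6), 0.005 (Psmc6), 0.173 (Psmd12) and -0.197 (Psme4). CCAAT occurred in 11 of 27 members (40.7%), against 41.1% of the 27025 genes, where a match in any window of a gene counted. GAAANNGAA, the core of the interferon-stimulated response element, occurred in 4 members (14.8%: Psmb3, Psmb4, Psmc2 and Psmd4), against 9.76% of the 27025 genes. TTCNNNGAA, the gamma-activated site, occurred in 1 member (Psmd2), against 9.55%. These matches are descriptions of the letters in the windows only.

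Genes that build, feed or regulate the proteasome were counted from lists chosen with earlier results of these data known. The background for these counts is 3.22% of all tested genes called in either direction, 1.85% higher and 1.38% lower. Of 10 tested genes of assembly, 0 passed the test, with a median log2 fold change of 0.064. The assembly chaperones Psmg3 (0.379, SE 0.121, edgeR adjusted p = 0.103) and Psmg1 (0.302, SE 0.098, edgeR adjusted p = 0.109) had the smallest p, while Pomp, which guides formation of the core, had 0.083. Among the bound factors, Psmf1, an inhibitor of the core, had a log2 fold change of 0.211 (edgeR adjusted p = 0.107). Of 9 genes of the Nrf pathway that controls proteasome transcription, 1 passed: Keap1, which marks Nrf2 for degradation, had 89.6, 102, 78.9, 77.9 and 67.8 CPM after anti-MerTK, against 60.0, 47.1, 51.1, 49.1 and 65.3 CPM after anti-gp120 (log2 fold change 0.61, SE 0.119, edgeR adjusted p = 0.022). Nfe2l2, the gene of Nrf2, averaged 660.0 ± 101 CPM after anti-MerTK and 804 ± 80.0 CPM after anti-gp120 (log2 fold change -0.284, edgeR adjusted p = 0.169), and Nfe2l1, whose product Nrf1 drives proteasome genes when the proteasome is inhibited, had -0.044. Of 6 ubiquitin genes and activating enzymes, 0 passed. The activating enzyme gene Uba6 had 25, 24.5, 21.9, 25.7 and 25.6 CPM after anti-MerTK, against 27.1, 33.4, 28.9, 29.1 and 27.4 CPM after anti-gp120, without overlap (log2 fold change -0.25, SE 0.075, edgeR adjusted p = 0.0889). Groups without overlap in that order, anti-MerTK lower, were found for 2.71% of all tested genes. Ubb, a polyubiquitin gene, had a log2 fold change of 0.196 (edgeR adjusted p = 0.148).

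The libraries held 33159858 to 46108687 counted reads. Transcripts of the antibody's target, Mertk, averaged 78.9 ± 4.96 CPM after anti-MerTK and 91.1 ± 14.3 CPM after anti-gp120 (edgeR adjusted p = 0.263); an antibody acts on the protein, so this does not check the labels. The 7 macrophage markers summed to 24355 to 30160 CPM after anti-MerTK and 23065 to 32567 CPM after anti-gp120. Anti-gp120 libraries 2 and 4, the low ones for the core particle, had 27593 and 32567 CPM of these markers. Of the 6 monocyte markers 1, Plac8, was called higher, against 1.85% of all tested genes. The monocyte list summed to 716 to 1547 CPM after anti-MerTK and 483 to 1273 CPM after anti-gp120, where libraries 2 and 4 had 1273 and 938 CPM. The 6 dendritic cell markers summed to 47.2 to 91.5 CPM after anti-MerTK and 23.8 to 63.6 CPM after anti-gp120, where libraries 2 and 4 had 31.4 and 23.8 CPM. Only 3 of these 6 were tested and 0 were called. The 5 epithelial or tumour markers summed to 25.8 to 34.2 CPM after anti-MerTK and 36.0 to 59.9 CPM after anti-gp120, without overlap, where anti-gp120 libraries 2 and 4 had 49.1 and 38.9 CPM. Only 1 of these 5, Cdh1, was tested, and it was called lower, against 1.38% of all tested genes. Single genes whose groups did not overlap, with anti-MerTK lower, made up 2.71% of all tested genes. Of the neutrophil, T cell, B cell, fibroblast and endothelial lists, 3 of 6, 2 of 6, 2 of 5, 5 of 5 and 3 of 4 markers were tested and none was called, and none of the 4 NK cell markers could be tested. The sums of these lists overlapped between the groups and reached at most 131 CPM. No marker of any list was at 0 in all libraries. The part of these other cells in the proteasome values was not tested.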

How the data were processed

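Tumour macrophage RNA was sequenced in 10 libraries, 5 per antibody. Library numbers follow accession order and pair nothing. The authors aligned reads with GSNAP to GRCm38, per the submitters' processing notes; the sources used here do not give the aligner's version, the annotation release or the strand setting. The deposited counts are whole numbers of uniquely aligned reads per Entrez gene, per the file headers. The deposited RPKM values carry a size factor that the authors applied to each library, per the file headers; they equalled counts times a gene and a library factor, to a relative deviation of 2.22e-14.

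The members and gene lists were chosen with earlier results of these data known. Counts of 13588 genes kept by filterByExpr were tested with edgeR 4.0.16 (limma 3.58.1, R 4.3.3): TMM, robust quasi-likelihood fit, antibody as the only term, two-sided, Benjamini-Hochberg over all tested genes at 0.05. The SE is approximate, from the F statistic. The biological coefficient of variation was 0.159. The test was also tried on simulated data, and no result of that trial is given here. Depth was 33159858 to 46108687 counted reads, and precision is given by the 95% intervals. RPKM ratios were compared with exact permutation tests (scipy 1.17.1, Python 3.11.15, smallest possible p 0.00794 with all 10 libraries). Copies were found with blastn among GENCODE M21 transcripts.

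The rule for named genes takes all members, Mertk, the 5 inducible genes and, of each further list, genes that passed and the 2 of smallest p; Pomp, Nfe2l1, Psme2b and the called markers were named after their values were seen. Paaf1 was not analysed here. A result on the list of bound factors is not reported here. Alternatives were other normalizations and filters, DESeq2 1.42.0, limma-voom, 1 surrogate variable (sva 3.50.0), a length offset, and fits without single libraries or without anti-MerTK replicates 2 and 5, which earlier work found to stand apart. An offset for length and GC content was added after seeing the data; 87.6% of tested genes had a GC value.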

Additional observations from a re-analysis of the deposited data

Results flagged for a closer look

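Among 82 groups of 5 libraries looked at, 3 held a library whose gap to its nearest neighbour was wide for the range of the group; chance marks about 1 group in 20. Psma5 had 27.0 CPM in anti-MerTK library 5, with the next highest at 22.5 CPM. Psmc1 had 66.0 CPM in anti-gp120 library 1, with the next highest at 56.8 CPM, and this library is the one that overlaps the anti-MerTK group. Psmc6 had 103 CPM in anti-MerTK library 5, with the next highest at 94.7 CPM, and without that library its log2 fold change was -0.026.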

How the results depend on the processing

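Of 693 fold changes of members under 21 other settings, 638 kept their direction and side of the threshold, 21 lost a call, 24 in 12 members gained one and 10 in 4 members turned direction. Core particle genes called numbered 3 with DESeq2 and 4 with limma-voom, and 0 under the other settings. Regulatory genes called numbered 4 with the 5 CPM filter, 9 with DESeq2, 6 with limma-voom, and 0 with no filter, with the length offset, with length and GC offsets and in 8 libraries; leaving out 1 library gave 0 to 4. Of the inducible genes, limma-voom called 1. Over all genes, against 438, DESeq2 called 1168, limma-voom 1036 and the fit on 8 libraries 204, and leaving out 1 library gave 70 to 654. The Psmb8 to Psmb5 difference ran from -0.04 to 0.079 when 1 library was left out, turning negative without anti-MerTK replicates 2 (-0.017) or 4 (-0.04) or anti-gp120 replicates 1 (-0.009), 2 (-0.016) or 4 (-0.031); that of Psmb10 to Psmb7 ran from 0.083 to 0.235, passing without anti-gp120 replicate 5. Psmc6 turned to -0.06 with the length offset, -0.032 in 8 libraries, and -0.026, -0.019 and -0.027 without anti-MerTK replicate 5 and anti-gp120 replicates 2 and 5 (range without 1 library -0.027 to 0.063). Psmd1 turned to -0.007 with the length offset and without anti-gp120 replicate 5 and to -0.008 without anti-MerTK replicate 3 (range -0.008 to 0.039), Psmd6 to -0.018 with the length offset, and Psmd13 to -0.005 with length and GC offsets. The causes were not tested. No paired analysis was possible because the labels give no replicate numbers, litters or batches that could pair libraries.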
